A study of Mus musculus with 8 samples.

Results

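The genes described here are 10 mouse genes whose proteins carry an IQ motif, taken by name from the 17127 genes of the deposited table: Iqch, Iqcb1, Iqce, Iqck, Iqcm, Iqcn, Iqub, Iqcf1, Iqcf4 and Iqcf5. Iqch is the gene that was mutated, and the other 9 are called its relatives below. All 10 were matched by Ensembl identifier and all 10 passed the minimum level for testing. The question put to them was whether any relative rose when Iqch was mutated.

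RNA-seq was done on total RNA of whole testes of 4-month-old mice, with 1 library per mouse. The 7 libraries used were wild type 1 to 4 (genotype WT) and mutants 1, 2 and 4 (genotype Iqch-/-, titled knockout in the labels). Mutant 3 is not analysed here, so 7 of the 8 samples listed were used. The mutant mice came from CRISPR-Cas9 editing of B6CBAF1 (C57BL/6xCBA) zygotes on exon 19 of Iqch. They belong to lines with small deletions in that exon (Iqch mu5 and Iqch mu7) and were homozygous. The labels do not give the line of each library, and the study's coverage plot of the RNA-seq reads names Iqch mu7. The values are CPM, the counts of a gene per 1000000 counts of its library. If the smallest step between the values of a library is taken as 1 read, 32064384 to 37551057 reads stood behind each library.

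An IQ motif is a short helical stretch that begins with a hydrophobic residue followed by glutamine and goes on with spaced basic residues. It binds calmodulin or related light chains, often without calcium, and so lets calmodulin dock on proteins of very different function. Several proteins of the family work in cilia or in the sperm tail and acrosome, which are built in spermatids. The family is grouped by this motif and not by overall similarity.

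The coding bases of an IQ motif of each gene are shown because the motif is what the 10 genes share. The match shown is the first with a glycine after the middle basic residue, or the first of any form where none has it. They were read from the canonical GENCODE transcript on GRCm39 and are printed 5′ to 3′ on the coding strand. Capitals mark the codons of the first residue and its glutamine, of the basic residue in the middle (with the glycine after it where there is one), and of the last basic residue.
Iqch: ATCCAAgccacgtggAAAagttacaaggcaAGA
Iqcb1: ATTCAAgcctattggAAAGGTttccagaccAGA
Iqce: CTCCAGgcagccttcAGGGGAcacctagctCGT
Iqck: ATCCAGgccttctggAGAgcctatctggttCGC
Iqcm: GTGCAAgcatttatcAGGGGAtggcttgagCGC
Iqcn: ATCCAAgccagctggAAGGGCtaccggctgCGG
Iqub: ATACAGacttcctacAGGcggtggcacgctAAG
Iqcf1: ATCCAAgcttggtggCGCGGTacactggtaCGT
Iqcf4: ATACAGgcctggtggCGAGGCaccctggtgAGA
Iqcf5: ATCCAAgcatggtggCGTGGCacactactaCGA

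The Iqch motif lies at chr9:63432125-63432157 on the minus strand, in exon 10 of 22, and encodes residues 413 to 423 of a protein of 1071 residues. It is the only match in IQCH and lacks the glycine, as do the motifs of Iqck and Iqub. The motifs shown for the other 7 genes have the glycine, since that form was preferred. IQCN held 6 matches of the form with the glycine, the most of the 10 proteins, and IQCB1 held 2. The motif of Iqcb1 is at chr16:36671571-36671603 (plus strand, exon 10 of 15) and that of Iqce at chr5:140657637-140657669 (minus strand, exon 19 of 23). The motif of Iqcm is at chr8:76473027-76473059 (plus strand, exon 10 of 14), that of Iqcn at chr8:71161067-71161099 (plus strand, exon 3 of 4) and that of Iqub at chr6:24491632-24491664 (minus strand, exon 7 of 13). The motif of Iqck runs over an exon junction, from 118514792 to 118540813 on the plus strand of chromosome 7, starting in exon 7 of 9. In the Iqcf genes the motif is at chr9:106379041-106379073 for Iqcf1 (plus strand, exon 3 of 3), chr9:106445894-106445926 for Iqcf4 (minus strand, exon 3 of 3) and chr9:106392796-106392828 for Iqcf5 (plus strand, exon 2 of 2).

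Exon 19, the target of the editing, is shown to place the deletions against the motif. It lies at chr9:63352756-63352878 on the minus strand of GRCm39, is 123 bp long and encodes residues 930 to 970, all after the IQ motif.
Iqch exon 19: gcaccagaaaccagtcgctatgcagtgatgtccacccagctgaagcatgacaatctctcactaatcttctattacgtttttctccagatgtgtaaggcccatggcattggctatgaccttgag

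Iqch itself, whose gene spans 63328687 to 63509775 on chromosome 9 (ENSMUSG00000037801), measured 217, 206, 216 and 193 CPM in wild type 1 to 4 and 67.7, 64.8 and 69.2 CPM in mutants 1, 2 and 4. The mutant values lay far below all wild-type values, with 67.6% less in the mean. The fitted change was -1.63 ± 0.05 (log2 fold change ± SE; limma with Benjamini-Hochberg adjustment, FDR 1.92e-10). Reads of Iqch were therefore still counted in the mutants, at 0.32 times the wild-type level on the log2(CPM + 0.1) scale. Of the exons of Iqch, 127 bp (1.7%) are shared with the opposite-strand gene Aagab, which was called higher (0.26, limma FDR 0.00162) but not after size factors (0.13, limma FDR 0.0624). The strand setting of the counting is not given in the sources used here.

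No relative was called higher. At an FDR of 0.01, 0 of the 9 relatives were called higher in the mutant by limma, and 0 were higher at an unadjusted limma p under 0.05, whereas 36.3% of all 17126 tested genes were called higher. The call was lower for 6 relatives (Iqce, Iqcm, Iqcn, Iqcf1, Iqcf4 and Iqcf5), against 14.2% of all tested genes. The remaining 3 (Iqcb1, Iqck and Iqub) did not pass. The median change of the 9 relatives was -0.21 and that of all tested genes was 0.12, both in log2. In whole testis, fewer cells of a type and less RNA per cell cannot be told apart.

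Since more genes rose than fell in the deposited CPM, the fit was repeated after dividing each library by its median-of-ratios size factor, which moved the median of all genes to -0.01. On that scale 0 of the 9 relatives were called higher and 7 lower, with a median of -0.35, where 27% of all tested genes were called higher and 25.1% lower. Iqub was the relative added to the lower calls. Every mutant library was below every wild-type library for 6 of the 9 relatives, which was so for 19.5% of all tested genes. Every mutant library was above every wild-type library for 1 relative, Iqck, and for 42.8% of all tested genes.

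**Figure D1:**
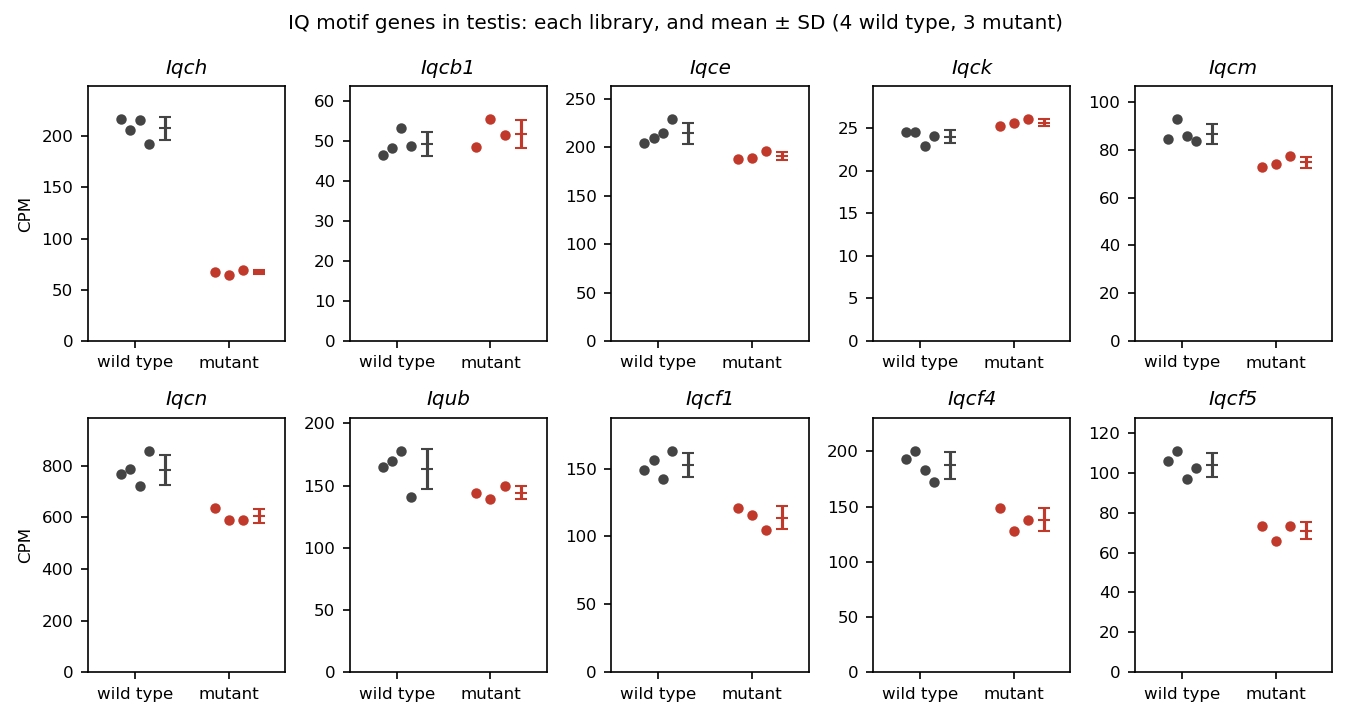
Level of each gene in CPM (y axis, from 0) in every library of wild-type and Iqch mutant testis, with the mean ± SD of each group (n = 4 and 3) beside the points. The mutant values of Iqch lay far below its wild-type values, the groups did not overlap for Iqcn and the Iqcf genes, and they overlapped for Iqcb1 and Iqub.

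The largest falls among the relatives were those of the Iqcf genes, a cluster on chromosome 9 that encodes small proteins, of 182 residues for Iqcf1, 204 for Iqcf4 and 148 for Iqcf5. Iqcf5 (ENSMUSG00000066382, chr9:106391761-106395240, plus strand) measured 106, 111, 96.6 and 102 CPM in wild type 1 to 4 and 73.5, 66.0 and 73.5 CPM in mutants 1, 2 and 4. The lowest wild-type library was above the highest mutant library. The change was -0.55 ± 0.06 (limma FDR 4.1e-06), a mean 31.7% lower.

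Iqcf4 (ENSMUSG00000041009, chr9:106445518-106448196, minus strand) measured 194, 201, 183 and 172 CPM in wild type and 149, 128 and 138 CPM in the mutants. The groups did not overlap, and the change was -0.44 ± 0.06 (limma FDR 4.91e-05). Iqcf1 (ENSMUSG00000066383, chr9:106377156-106379453, plus strand), whose protein is known from the acrosomal region of sperm and from capacitation, measured 149, 156, 142 and 163 CPM in wild type and 121, 116 and 105 CPM in the mutants. Again no mutant library reached a wild-type one, and the change was -0.42 ± 0.06 (limma FDR 4.85e-05). Iqcf6, a neighbour in the cluster that was in the wider list of IQ motif genes, averaged 31.2 ± 2.96 CPM over the wild-type libraries (SD, n = 4) and 21.6 ± 0.215 CPM over the mutants (SD, n = 3), a change of -0.53 ± 0.07 (limma FDR 5.14e-05). All 4 Iqcf genes measured were thus called lower, by amounts from -0.42 to -0.55.

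The proteins of the cluster are alike in part only. Over aligned residues, IQCF4 and IQCF5 were 58.8% identical, IQCF1 and IQCF5 56.1%, and IQCF1 and IQCF4 49.7%, while IQCF6 was 39.7% to 46.9% identical to each of them. The genes that flank the cluster did not fall with it. Rrp9, on the near side, was called higher by 0.22 (limma FDR 0.00821) and Tex264, on the far side, changed by 0.16 without passing (limma FDR 0.0109). After size factors these were 0.08 and 0.03, and neither passed. Iqcf5 lies within an opposite-strand non-coding gene, 4930517N10Rik, which shares no exonic base with it and was called lower by -0.37 (limma FDR 6.79e-04).

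RefSeq promoter windows around the annotated start (GRCm38.p6) were held for 9 of the 10 genes, Iqce being the exception. A palindrome-like 8-base stretch of the cAMP response element type was noticed in the promoters of Iqcf1, Iqcf4 and Iqcf5. It was counted only after the letters had been seen. The windows of these 3 genes are shown because they hold the stretch. They are printed on the strand of the gene with the stretch in capitals.
Iqcf1 promoter, chr9:106499930-106499949, plus strand: cccttaTGACATCAtgggcc
Iqcf4 promoter, chr9:106571010-106571029, minus strand: gccttaTGACATCAtcaccg
Iqcf5 promoter, chr9:106514563-106514582, plus strand: cccttaTGACGTCAtcactc

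The stretch began 31 bases before the annotated start in Iqcf1, 56 in Iqcf4 and 4 in Iqcf5. TGACATCA or TGACGTCA, on either strand, was found in 3 of the 9 promoters, those of Iqcf1, Iqcf4 and Iqcf5. It was found in 5.36% of the 32851 promoters of the table. The longer form TATGACATCAT or TATGACGTCAT, which contains the shorter ones and was read from these windows, was held by the same 3 and by 0.164% of all promoters. The windows of Iqch, Iqcb1, Iqck, Iqcm, Iqcn, Iqub and Iqcf6 held neither of the 8-base forms. The promoter windows of Iqcf3, whose change is not analysed here, held an 8-base form too, and the longer form at chr9:106544722-106544741. Iqcf6, without the stretch, changed by -0.53, and Iqcf1, Iqcf4 and Iqcf5, with it, by -0.42, -0.44 and -0.55. The part of the stretch in these changes was not tested. A match of letters is a description and does not show that a factor binds there.

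Iqcn (ENSMUSG00000110622, chr8:71156106-71170299, plus strand), which is needed for acrosome formation and sperm head shaping in mice, was the most abundant of the 10 genes in CPM. It measured 766, 786, 722 and 858 CPM in wild type 1 to 4 and 638, 591 and 590.04 CPM in mutants 1, 2 and 4. All mutant libraries were below all wild-type libraries. The change was -0.37 ± 0.05 (limma FDR 7.54e-05), a mean 22.6% lower.

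Iqcm (ENSMUSG00000031620, chr8:76175322-76711131, plus strand) measured 84.5, 92.8, 85.6 and 83.6 CPM in wild type and 72.7, 74.1 and 77.4 CPM in the mutants. The groups were separate, by a smaller step than in Iqcn, and the change was -0.21 ± 0.05 (limma FDR 0.00254). The call was lost without mutant 1 (-0.19, limma FDR 0.0132) and without mutant 2 (-0.21, limma FDR 0.0108).

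Iqub (ENSMUSG00000046192, chr6:24444864-24515082, minus strand) encodes a protein of the radial spokes of the sperm tail. It measured 165, 170 and 178 CPM in wild type 1 to 3 but 141 CPM in wild type 4, and 144, 140 and 149.95 CPM in the mutants. Wild type 4 lay within the range of the mutants, so the groups overlapped. The change of -0.17 ± 0.07 did not pass (limma FDR 0.0403). Without wild type 4 it was -0.24 (limma FDR 7e-04), and after size factors -0.31 (limma FDR 0.00166), both called lower.

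Iqce and Iqcb1 encode proteins of the base of the primary cilium. IQCE anchors the EVC-EVC2 complex, which passes on Hedgehog signals from Smoothened, and IQCB1 (nephrocystin-5) works with CEP290 in the transition zone and is mutated in disease of the retina and kidney. Iqce (ENSMUSG00000036555, chr5:140647582-140688133, minus strand) measured 204, 209, 215 and 229 CPM in wild type and 188, 188 and 196 CPM in the mutants. The groups did not overlap, but the change was small, -0.16 ± 0.05 (limma FDR 0.00683). The call did not hold when any of 6 libraries was left out: mutant 1, 2 or 4 or wild type 2, 3 or 4 (changes from -0.13 to -0.18, limma FDR 0.0118 to 0.0266). After size factors it was -0.30 (limma FDR 1.11e-04).

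Iqcb1 (ENSMUSG00000022837, chr16:36648633-36694405, plus strand) measured 46.5, 48.1, 53.3 and 48.8 CPM in wild type 1 to 4 and 48.4, 55.4 and 51.6 CPM in mutants 1, 2 and 4. The groups overlapped through most of their range. The change of 0.07 (95% interval -0.06 to 0.21) did not pass (limma FDR 0.316), and it was -0.06 after size factors (95% interval -0.19 to 0.07). A rise of more than 1.16-fold thus lay outside the interval of the deposited scale.

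Iqck (ENSMUSG00000073856, chr7:118454952-118571875, plus strand) was the relative closest to a rise. It measured 24.5, 24.5, 22.9 and 24.0 CPM in wild type and 25.2, 25.6 and 26.0 CPM in the mutants. Every mutant library was above every wild-type library, by a narrow margin, and the exact two-sided permutation test gave p = 0.0286, the smallest that 4 against 3 libraries can give. The change of 0.10 (95% interval -0.03 to 0.22) did not pass over all genes (limma FDR 0.172). After size factors it was -0.04 (95% interval -0.16 to 0.09), so its sign depended on the scaling. Exons of Iqck share 645 bp (7.1%) with Knop1 and 609 bp (6.7%) with Gprc5b, both on the opposite strand. Gprc5b was called higher by 0.69 (limma FDR 1.66e-07) and Knop1 did not pass (-0.03, limma FDR 0.59). The part of these shared bases in the value of Iqck was not tested.

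**Figure D2:**
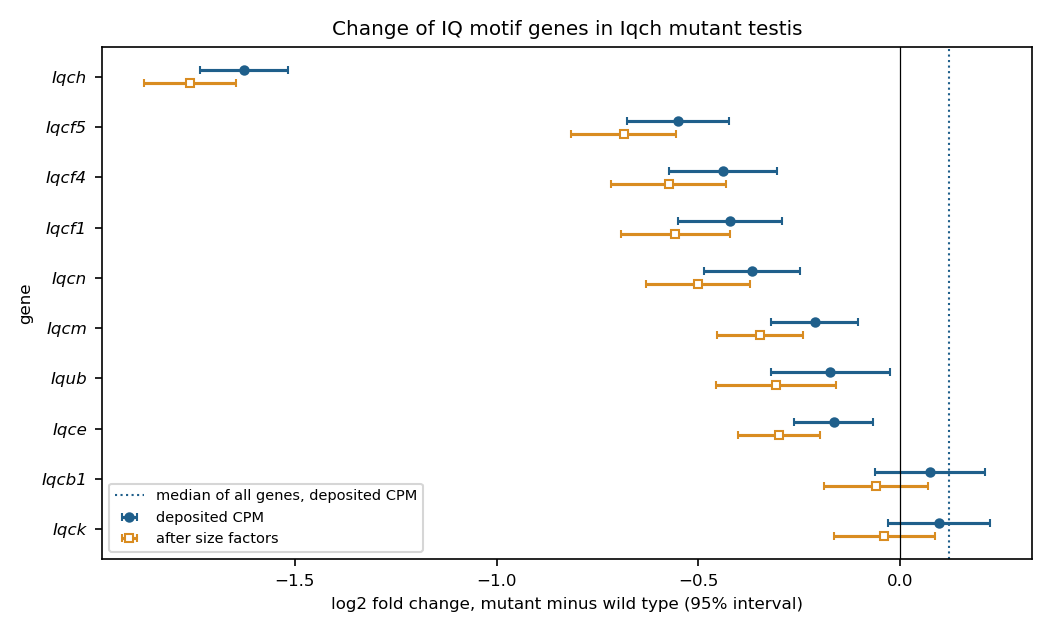
Log2 fold change of each gene, mutant minus wild type (x axis), with its 95% interval, from the deposited CPM (filled circles) and after size factors (open squares). The dotted line is the median of all tested genes in the deposited CPM, 0.12. All 9 relatives lay left of that line in the deposited CPM, and Iqcb1 and Iqck had intervals that crossed 0 on both scales.

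Levels of different genes were compared in CPM per kilobase of merged exons, the union of all annotated exons of a gene. The wild-type order was Iqcf4 (248 ± 16.5 CPM per kb, SD, n = 4), Iqcf1 (204 ± 12.1), Iqcn (171 ± 12.3), Iqub (44.6 ± 4.35), Iqcf5 (40.1 ± 2.33), Iqcm (39.7 ± 1.91), Iqch (27.8 ± 1.51), Iqce (15.1 ± 0.749), Iqcb1 (3.91 ± 0.234) and Iqck (2.63 ± 0.0839). The ranges of the libraries overlapped between Iqub and Iqcf5 and between Iqcf5 and Iqcm, so these neighbours did not differ beyond their spread. In the mutants Iqch was at 9.01 ± 0.302 CPM per kb (SD, n = 3) and moved from rank 7 to rank 8, below Iqce. The length used matters for the order. With the canonical transcript of each gene, Iqch was at 55.8 CPM per kb, rank 4 in wild type and rank 8 in the mutants, Iqck was above Iqcb1 (15.9 against 13.5 CPM per kb), and the ranges of Iqcf4 and Iqcf1 overlapped.

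**Figure D3:**
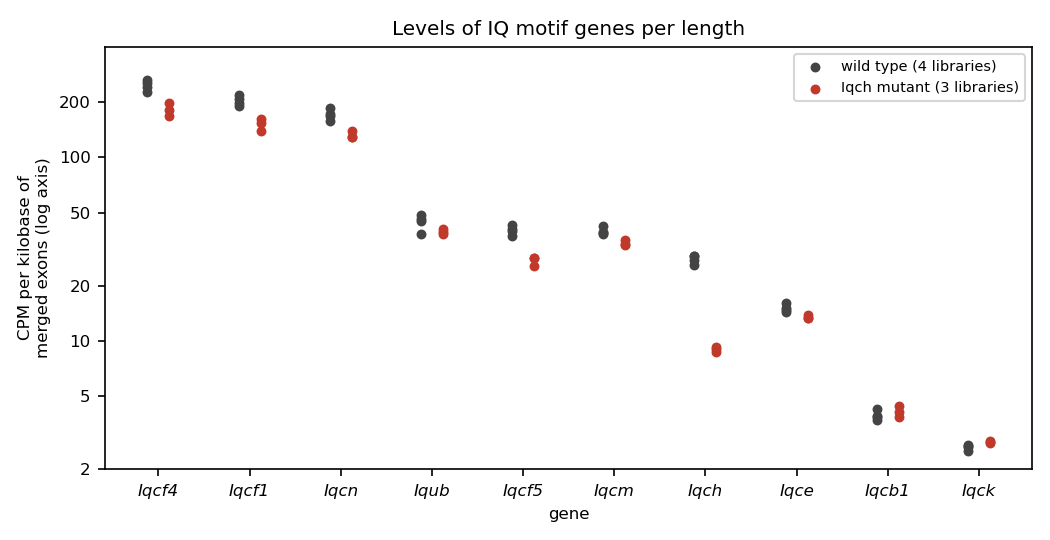
CPM per kilobase of merged exons (y axis, log scale) of each gene in each wild-type and Iqch mutant library, ordered by the wild-type mean. The 3 most abundant genes, Iqcf4, Iqcf1 and Iqcn, were at means of 171 to 248 CPM per kb in wild type, and Iqch fell from 27.8 to 9.01 CPM per kb, below Iqce.

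A wider list of 23 IQ motif genes gave the background of the family; 19 were tested, and Iqcf3, Iqcj, Iqcl and Iqsec3 are not analysed here. Of the 19, 3 were called higher and 4 lower, with a median of -0.15, and after size factors 3 were called higher and 10 lower. Over all tested genes 36.3% were called higher and 14.2% lower, and 27% and 25.1% after size factors. Iqsec2, an exchange factor for ARF GTPases known from synapses, measured 6.64, 6.32, 5.75 and 5.73 CPM in wild type and 12.7, 12.04 and 15.7 CPM in the mutants. Its mutant values were all far above wild type, with a change of 1.12 ± 0.11 (limma FDR 2.05e-06). The calmodulin-binding transcription activators Camta1 and Camta2 rose by 0.46 ± 0.07 (limma FDR 7.1e-05) and 0.43 ± 0.06 (limma FDR 5.01e-05).

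The lower calls in the wider list, besides Iqcf6, were the actin scaffold Iqgap1 (-0.27 ± 0.04, limma FDR 5.8e-05), Lrriq3 (-0.25 ± 0.06, limma FDR 0.00187, but -0.22 and not called without mutant 1, limma FDR 0.0109) and Spa17, which encodes a protein of the fibrous sheath of the sperm tail (-0.24 ± 0.04, limma FDR 8.91e-05). The mean of Spa17 was 691 ± 15.2 CPM over wild-type libraries (SD, n = 4) and 585 ± 14.3 CPM over mutants (SD, n = 3). Iqca1, Iqcd and Iqcg encode subunits of the nexin-dynein regulatory complex, which links the doublets of the axoneme. Their changes were -0.13, -0.15 and -0.15, and none passed (limma FDR 0.191, 0.0101 and 0.0141). After size factors Iqcd and Iqcg were called lower, both at -0.29.

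Calm2 and Calm3, which encode calmodulin, the ligand of IQ motifs, changed by -0.09 and -0.11, and neither passed (limma FDR 0.0979 and 0.0422). Calm2 averaged 463 ± 20.7 CPM over wild-type libraries (SD, n = 4) and 436 ± 15.7 CPM over mutants (SD, n = 3). After size factors both were called lower, at -0.22 and -0.24. Of the genes of the complex of IQCE, Evc2 was called higher, from 2.94 ± 0.431 to 5.43 ± 0.218 CPM (0.87 ± 0.14, limma FDR 1.28e-04), and so was Smo, which encodes Smoothened (0.47 ± 0.13, limma FDR 0.00639). Smo did not pass after size factors (0.33, limma FDR 0.0368), nor without any mutant or without wild type 2, 3 or 4 (0.40 to 0.51, limma FDR 0.011 to 0.0241). Efcab7 did not pass (-0.18, limma FDR 0.31), and its mutant values were spread from 15.9 to 28.9 CPM. Without mutant 4, the highest, it was called lower (-0.43, limma FDR 9.92e-04), and without mutant 1, the lowest, its change was -0.0073 (limma FDR 0.968); without mutant 2 it was -0.11 (limma FDR 0.619). Evc is not analysed here. Of the genes of the cilium base that work with IQCB1, Cep290 was called lower (-0.20, limma FDR 0.00526), a call that was lost without mutant 1, 2 or 4 or wild type 2 or 3 (limma FDR 0.0104 to 0.0264), and Rpgr, Nphp4 and Invs did not pass. After size factors Cep290, Rpgr, Nphp4 and Invs were called lower.

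Markers of some testis cell types moved with the genotype, and those of others did not. All 9 elongating spermatid markers were called lower, with a median of -0.61, and their summed level ran from 24202 to 25596 CPM in wild type and from 15547 to 17799 CPM in the mutants. Of 7 round spermatid markers, 5 were called lower (median -0.22, summed 1529 to 1708 CPM against 1313 to 1432 CPM). Of 8 spermatocyte markers, 0 passed in the deposited CPM (median -0.02, summed 1308 to 1361 CPM against 1227 to 1338 CPM) and 3 were called lower after size factors. Of 7 spermatogonia markers, 4 were called higher (median 0.30, summed 236 to 252 CPM against 292 to 335 CPM), 1 of them after size factors. The shares over all tested genes were 14.2% lower and 36.3% higher, and 25.1% and 27% after size factors. The spermatogonia count after size factors was thus not above the share of all genes.

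In the somatic lists, 7 of 7 Sertoli (median 0.85) and 6 of 7 Leydig markers (median 1.42) were called higher. So were 6 of 6 macrophage markers (median 1.56). After size factors the counts were 5, 6 and 6. On both scales 2 of 5 endothelial markers (median 0.63) and 1 of 4 peritubular myoid markers (median 0.06) were called higher. The share over all tested genes was 36.3%, and 27% after size factors. Within these 2 lists Vwf (-0.21), Tek (-0.29), Myh11 (-0.16) and Cnn1 (-0.19) went the other way. None of these passed in the deposited CPM, and Vwf was called lower after size factors (limma FDR 5.61e-04). The summed levels were 973 to 1057 CPM in wild type and 2049 to 2184 CPM in the mutants for Sertoli cells, 1021 to 1224 and 4296 to 4472 CPM for Leydig cells, and 65.9 to 72.3 and 163 to 190 CPM for macrophages. They were 30.6 to 34.5 and 44.0 to 46.4 CPM for endothelial cells and 66.2 to 90.1 and 76.5 to 102 CPM for peritubular myoid cells. No marker tested was at 0 in a library, and Fshr is not analysed here. Changes of the relatives, from -0.55 to 0.10, lay between the medians of the elongating spermatid and spermatogonia lists. Those medians stood at percentiles 3.4 and 64.3 of the changes of all tested genes, so most genes lay between them too. The part of the cellular makeup in the changes of the IQ motif genes was not tested.

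**Figure D4:**
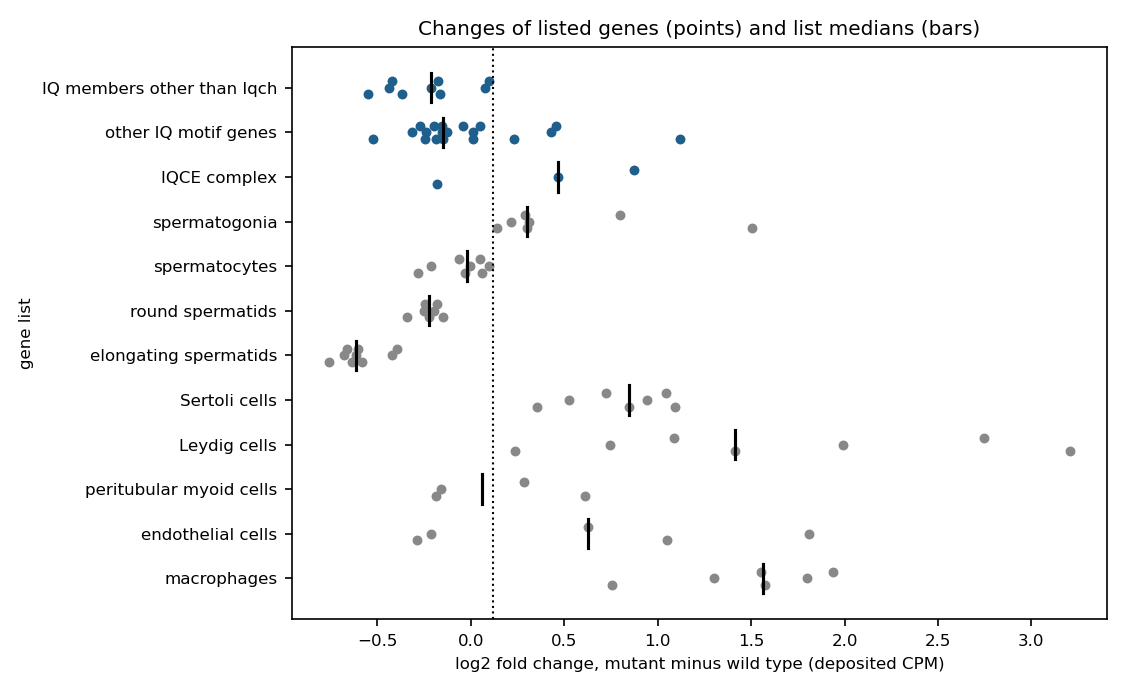
Log2 fold changes, mutant minus wild type, in the deposited CPM (x axis) of the 9 relatives, the wider IQ motif list and genes of the IQCE complex (blue) and cell type markers (grey), 1 point per gene, with black bars at list medians and the median of all tested genes dotted. The median was -0.21 for the relatives and -0.22 for the round spermatid markers. The relatives were spread more widely, from -0.55 to 0.10, than those markers, from -0.34 to -0.15. Medians of the elongating spermatid, Leydig and macrophage markers were -0.61, 1.42 and 1.56.

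The genes whose pattern over the 7 libraries was most like that of Iqch were none of its relatives. By Euclidean distance between centred log2 values, the nearest were Cnmd (0.204), Ccdc7a (0.273), the unclassified transcript 4930573C08Rik (0.306), Ndufaf3 (0.329) and the pseudogene Mark1-ps1 (0.373). The values were not scaled, so this distance mainly followed the size of the change. That was -1.63 for Iqch and -1.48 to -1.78 for these genes. Cnmd averaged 5.09 ± 0.13 CPM over wild-type libraries (SD, n = 4) and 1.59 ± 0.0288 CPM over mutants (SD, n = 3). Ndufaf3, an assembly factor of respiratory complex I, averaged 762 ± 35.5 CPM over wild-type libraries and 222 ± 8.95 CPM over mutants. Of the nearest genes that do not overlap Iqch on chromosome 9, 2300009A05Rik was called lower (-0.27, limma FDR 0.0037) and Smad3, a transducer of TGF-beta signals, higher, from 8.75 ± 1.02 to 19.9 ± 0.574 CPM (1.18 ± 0.09, limma FDR 3.8e-07).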

How the data were processed

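RNA-seq libraries of whole mouse testis were described by their labels as wild type or Iqch-/-, and 4 wild-type and 3 mutant libraries were compared. The labels and methods name Trimmomatic, Subread and featureCounts on GRCm39, with a minimum of reads per gene. The authors deposited CPM, and each library summed to 1000000 CPM over the genes of the table. The strand setting of the counting is not given in the sources used here.

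Tests used limma 3.58.1 in R 4.3.3 (trend) on log2(CPM + 0.1), a scale that understates changes of low genes, keeping a gene where 2 libraries of the same genotype reached 2.2 CPM (17126 of 17127). The Benjamini-Hochberg adjustment ran over every tested gene, and calls were made at an FDR of 0.01. Intervals are 95%. The exact permutation test was two-sided over 35 assignments. The fit was also run on simulated data with far fewer changed genes than were called here, and its outcome is not reported. Nothing in the labels ties a replicate number to a shared litter or day.

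The genes and lists were chosen with earlier results of these data known. Named genes are the 10 genes, the wider IQ motif list, partner genes, the 5 genes nearest to Iqch in pattern and flanking genes; 2 partner genes are not reported here. Coordinates and transcripts came from GENCODE M39 on GRCm39, with 17045 genes matched, and promoters from RefSeq (GRCm38.p6). IQ motifs were searched as a hydrophobic residue and glutamine followed by basic residues at fixed spacing in translated canonical transcripts. Matches with the glycine were preferred for display. Python 3.11.15, Biopython 1.88, pandas 2.3.3 and matplotlib 3.10.9 were used. Alternatives were pseudocounts of 1 and 0.01, no minimum or 5 CPM, median-of-ratios scaling, sample weights, a replicate block, and dropping each library in turn.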

Additional observations from a re-analysis of the deposited data

Results flagged for a closer look

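Among 39 genes examined in the 4 wild-type libraries, 3 had a library that stood apart from the others beyond Dixon's critical value, a rate close to the 1 in 20 groups that chance gives. Lrriq4 was at 37.0 CPM in wild type 4 and 45.1, 46.5 and 46.3 CPM in wild type 1 to 3. Rpgr was at 47.5 CPM in wild type 4 and 54.0 to 55.2 CPM in the others. Camta1 was at 24.3 CPM in wild type 2 and 26.6 to 27.0 CPM in the others. No such library was found for the 10 genes of the report.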

How the results depend on the processing

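The count of 0 relatives called higher was the same under all alternatives run. The count called lower (6) was 7 after size factors, 5 with the replicate block and 4 to 6 with a library left out, with 4 without mutant 1 or without mutant 2. Size factors changed the count of all genes called lower from 2428 to 4294 and that of the wider IQ motif list from 4 to 10, and turned the sign of Iqcb1 (-0.060), Iqck (-0.039), Iqca1l (-0.123), Iqcc (-0.124) and Iqgap2 (-0.084), none of them called. Iqca1l (0.01) and Iqcc (0.01) also turned sign with the replicate block (-0.0201 and -0.0221), and Iqcc with sample weights (-0.00546). With a library left out, Iqca1l ran from -0.0294 to 0.0723 and Iqcc from -0.0603 to 0.102. The cause was not tested. Same-numbered libraries did not deviate together (correlations across genes of 0.0261, 0.0094 and -0.0977), so the numbers were not read as pairs. In the paired fit (replicate block) Iqch was at -1.61 and Iqce at -0.16 (limma FDR 0.0112), the call lost among the 10 genes. Every CPM value was a whole multiple of its library's step, but the reads so implied were not accepted as counts here, and count tests (edgeR and DESeq2) were not run.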

Other observations

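The longer stretch shared by the promoters of Iqcf1, Iqcf4 and Iqcf5 was looked up after the values of the Iqcf genes were known. All tested genes with a RefSeq promoter that held it were taken, leaving out the Iqcf genes. Of 30 such genes, 13 (43.3%) were called lower and 9 (30.0%) higher, with a median change of -0.32; over all 11940 tested genes with a promoter, 13.7% were called lower and 38.9% higher, with a median of 0.15. After size factors the same numbers of the 30 were called, with a median of -0.45, against 24.8% lower and 29.1% higher over all 11940 genes, so the share called higher was close to that of all genes. Of the 13 lower calls, 6 have Gm or Rik symbols, among them the 2 of the lowest values, Gm35386 (-1.01) and Gm6818 (-0.85). The others are Smcp, the sperm mitochondrial capsule protein (-0.68), Lelp1 (-0.59), Znrf4 (-0.41), Proca1 (-0.40), Nt5c1b (-0.40), Txndc8, a testis thioredoxin (-0.36), and Septin4, which encodes a component of the sperm annulus (-0.19). The 9 higher calls were all predicted genes with Gm symbols, from Gm1988 (0.81) to Gm9271 (4.42), and whether they are copies of each other was not examined. With the shorter forms, 20.4% of 829 genes were called lower and 29.4% higher, and 32.7% and 22.6% after size factors. These genes were named after their values were seen, and no test was made.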
